A study of Homo sapiens with 16 samples.

Results

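H9 human embryonic stem cells that had been kept in activin for 3 days were compared with H9 cells kept in activin for 1 day, the interval in which such cultures are taken from a streak-like stage to endoderm. The comparison holds 6 of the 14 biological samples of the series, 3 labelled day 1 and 3 labelled day 3, and each was hybridised on 1 of the 16 Human Exon 1.0 ST arrays. Samples were chosen by their labels alone. H9 is an established line of human embryonic stem cells. Both groups grew in RPMI-1640 with activin A at 100 ng/ml, and serum was stepped from 0% through 0.2% to 2%, but the labels do not say which step each day had reached. Time in culture, time in activin and serum therefore cannot be told apart. The 4 undifferentiated samples (day 0, on mouse feeders or Matrigel, with 8 ng/ml basic FGF in feeder-conditioned medium and without activin) and the 4 samples after 5 days in activin enter only through the shared estimate of spread and as reference levels. The labels call the replicates biological but do not say what separated them, so the p-values measure the spread between these samples.

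Activin binds the receptors that nodal uses in the embryo and signals through SMAD2 and SMAD3, which act on chromatin together with partners such as FOXH1 and EOMES. In the gastrulating embryo, epiblast cells pass through the primitive streak, where EOMES, MIXL1, GSC, TBXT, FGF4 and FGF8 are expressed. Cells at its anterior end then become definitive endoderm, marked by SOX17, FOXA2, GATA4, GATA6 and the chemokine receptor CXCR4, and the genes of the pluripotent state are turned down.

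The samples of the 2 groups were not equally alike. Day 3 replicates 1 and 3 correlated at 0.977 over all probe sets, a description with no test, while day 3 replicate 2 correlated with them at 0.833 and 0.825 and with day 1 replicate 2 at 0.919. The day 1 samples correlated with each other at 0.930 to 0.970. The change from day 1 to day 3 within a replicate number correlated at 0.49 between numbers 1 and 3, at -0.03 between 1 and 2 and at -0.01 between 2 and 3. The level in day 3 replicate 2 is therefore given beside those of replicates 1 and 3, and calls made without it are set beside the adjusted p with all samples. The fit without it was singled out after replicate 2 was seen to differ. Its p-values rest on the day 3 samples that were alike and are no independent support for a change. Levels are log2(intensity + 1) and differences are day 3 minus day 1 on that scale. In bulk RNA, fewer cells of a type and less RNA per cell cannot be told apart.

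With all samples, 6 of 18495 probe sets (0.0324%) passed limma at a Benjamini-Hochberg adjusted p under 0.05, and 1595 had an unadjusted p under 0.05. The heparan sulfate proteoglycan gene SDC2 rose. The genes that fell were FGF4, a secreted ligand made by early embryonic cells, EBF2, a helix-loop-helix transcription factor, THBS2, a matrix thrombospondin, IL23A, a cytokine subunit, and BRINP1, known as a brake on the cell cycle in neurons. In each of the 6, day 3 replicate 2 lay on the same side of day 1 as replicates 1 and 3, so the 3 day 3 samples did not overlap the 3 day 1 samples. The fit that called these 6 genes held replicate 2, so the choice itself favours such genes. The day 0 mean of each lay outside the day 1 samples on that side too. A sample at the day 0 level would thus also be separated from day 1. In THBS2 and BRINP1 all day 3 samples, replicate 2 among them, were below every day 0 sample.

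For the called genes THBS2, IL23A and BRINP1, the window from 250 bases before to 50 bases after the gene start is shown (RefSeq promoter table, GRCh38.p14). The windows of FGF4, EBF2 and SDC2 are not shown. That of ANXA1, which had the widest gap among the genes that were higher at day 3, is added. The letters of these promoters can so be read beside the values. Capitals mark exact matches on either strand to motifs of factors active at this stage, and each sequence runs 5′ to 3′ along its gene.
THBS2, chr6:169253797-169254096, minus strand: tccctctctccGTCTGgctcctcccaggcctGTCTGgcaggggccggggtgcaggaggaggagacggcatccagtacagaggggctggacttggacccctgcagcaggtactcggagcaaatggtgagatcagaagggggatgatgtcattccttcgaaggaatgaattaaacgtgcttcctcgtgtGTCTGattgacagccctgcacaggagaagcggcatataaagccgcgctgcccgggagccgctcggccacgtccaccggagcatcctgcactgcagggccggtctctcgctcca
IL23A, chr12:56338634-56338933, plus strand: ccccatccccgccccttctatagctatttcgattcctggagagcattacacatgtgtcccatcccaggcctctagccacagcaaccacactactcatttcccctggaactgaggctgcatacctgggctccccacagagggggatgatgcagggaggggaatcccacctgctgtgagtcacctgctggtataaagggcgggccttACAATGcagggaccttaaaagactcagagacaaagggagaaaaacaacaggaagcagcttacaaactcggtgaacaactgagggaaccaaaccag
BRINP1, chr9:119369386-119369685, minus strand: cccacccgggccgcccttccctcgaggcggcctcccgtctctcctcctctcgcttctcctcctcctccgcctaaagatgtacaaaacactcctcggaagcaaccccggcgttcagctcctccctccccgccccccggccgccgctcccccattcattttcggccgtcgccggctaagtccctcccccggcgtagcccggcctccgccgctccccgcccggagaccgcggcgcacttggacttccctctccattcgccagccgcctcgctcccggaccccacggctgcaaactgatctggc
ANXA1, chr9:73151615-73151914, plus strand: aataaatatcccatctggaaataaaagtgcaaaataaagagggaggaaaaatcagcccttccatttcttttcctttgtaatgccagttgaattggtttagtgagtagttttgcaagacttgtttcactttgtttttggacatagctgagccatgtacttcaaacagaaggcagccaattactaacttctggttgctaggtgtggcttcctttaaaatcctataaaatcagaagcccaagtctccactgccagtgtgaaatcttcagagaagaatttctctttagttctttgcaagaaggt

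On both strands, 6 motifs were searched. The forkhead factor FOXH1 was represented by GTGGATT and the SMAD proteins by CAGAC. T-box factors were represented by GGTGTGA and GATA factors by AGATAA. SOX factors were represented by ACAATG and the FOXA forkhead factors by TGTTTAC. The THBS2 window held the SMAD-type letters 3 times, each as GTCTG on the strand shown, starting at -239, -219 and -63 from the gene start. The IL23A window held the SOX-type letters once, at -45, and the BRINP1 and ANXA1 windows held none of the 6. SMAD-type letters stand in 45.0% of the 27305 promoters of the table and SOX-type letters in 11.0%, so matches like these are common. The windows differed in base composition, from 37.7% G and C for ANXA1 and 53.7% for IL23A to 61.7% for THBS2 and 70.7% for BRINP1, where the median promoter has 58.3%.

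FGF4 stood at 9.37, 10.25 and 10.91 in day 1 replicates 1, 2 and 3 and at 6.22, 6.04 and 5.94 in day 3 replicates 1, 2 and 3. All day 3 samples were near the day 0 mean of 6.63 ± 0.51 (SD, n = 4), and the day 5 mean was lower still at 4.12 ± 0.98 (n = 4). FGF4 fell by 4.11 ± 0.53 (SE, limma adjusted p 0.0209), a 17.3-fold difference. Without day 3 replicate 2 the difference was -4.10 ± 0.61 (adjusted p 0.00573).

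EBF2 stood at 9.51, 8.59 and 8.92 at day 1 and at 5.88, 3.85 and 5.46 at day 3. Day 3 replicate 2 was the lowest of the 3, and the day 0 and day 5 means were 5.80 ± 0.47 and 5.78 ± 0.75, so the gene was high at day 1 alone among the days measured. It fell by 3.94 ± 0.54 (adjusted p 0.029), and by 3.34 ± 0.48 without day 3 replicate 2 (adjusted p 0.00485).

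THBS2 had the smallest spread of the called genes, with 8.91, 8.68 and 9.17 at day 1 and 6.50, 6.70 and 6.41 at day 3. Its level was 7.97 ± 0.08 at day 0, between the 2 groups, and 6.32 ± 0.15 at day 5, like day 3. It fell by 2.39 ± 0.21 (adjusted p 0.000915), a 5.23-fold difference.

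BRINP1 stood at 9.91, 9.71 and 9.06 at day 1 and at 7.05, 7.70 and 7.20 at day 3, and fell by 2.24 ± 0.29 (adjusted p 0.0209). Its day 0 mean was 8.68 ± 0.28 and its day 5 mean 7.26 ± 0.19. IL23A stood at 8.38, 8.47 and 7.52 at day 1 and at 5.46, 5.78 and 6.31 at day 3, and fell by 2.27 ± 0.32 (adjusted p 0.031). Like EBF2 it was low at day 0 (6.11 ± 0.22) and at day 5 (6.31 ± 0.33).

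SDC2 stood at 9.99, 10.41 and 9.54 at day 1 and at 11.96, 11.71 and 12.14 at day 3, and rose by 1.96 ± 0.29 (adjusted p 0.0439), a 3.88-fold difference. The day 0 mean of 11.49 ± 0.20 and the day 5 mean of 11.54 ± 0.37 lay close to day 3, so day 1 was the low point among the days measured.

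THBS2 was the gene whose call was least tied to single samples, and it kept its call when any 1 of the 14 samples was left out. FGF4 lost its call without day 1 replicate 2 (adjusted p 0.0562) or 3 (0.101) or day 3 replicate 1 (0.124) or 3 (0.104), and BRINP1 without day 1 replicate 1 (0.195) or 2 (0.0562) or day 3 replicate 1 (0.134) or 3 (0.104). EBF2 kept its call in 5 of these 14 fits, IL23A in 4 and SDC2 in 2. EBF2 lost it without day 0 replicate 2, 3 or 4, any day 1 sample, day 3 replicate 1 or 3 or day 5 replicate 2 (0.0549 to 0.27). IL23A lost it without any day 0 sample, day 1 replicate 1 or 2, day 3 replicate 1 or 3 or day 5 replicate 1 or 2 (0.0554 to 0.278). SDC2 lost it without any sample but day 3 replicate 2 and day 5 replicate 3 (0.0506 to 0.278). With the replicate number as a block, THBS2 alone kept its call (adjusted p 0.0133, against 0.0579 for FGF4, 0.0634 for EBF2 and BRINP1 and 0.0652 for IL23A and SDC2). In a fit of days 1 and 3 only, no gene passed, with adjusted p values of 0.428 for THBS2 and FGF4, 0.715 for EBF2 and 0.757 for the others.

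**Figure D1:**
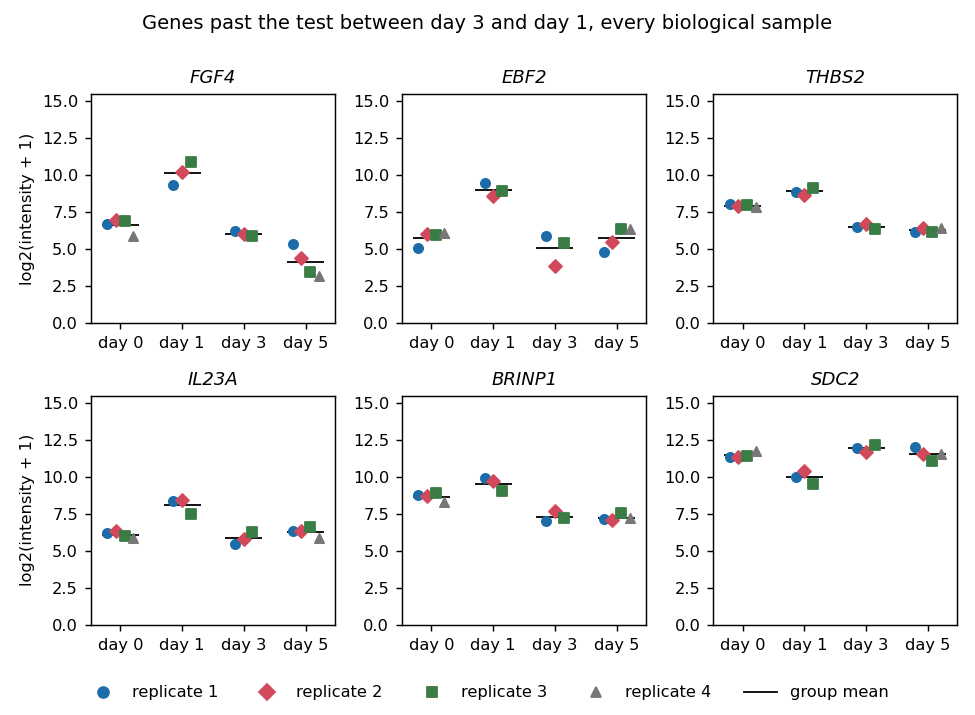
Level, as log2(intensity + 1), of the 6 genes past the test in every biological sample of days 0, 1, 3 and 5; points are samples, marked by replicate number, and lines are group means. In all 6 the day 3 samples, replicate 2 among them, are separated from the day 1 samples, and FGF4, EBF2 and IL23A are highest at day 1 while SDC2 is lowest there.

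The stage markers show what day 3 replicate 2 was like. SOX17, a transcription factor of endoderm, stood at 6.58, 7.12 and 8.00 at day 1 and at 11.21, 5.52 and 11.37 at day 3. Replicates 1 and 3 were above every day 1 sample and near the day 5 mean of 11.16 ± 0.65, and replicate 2 was below every day 1 sample and below the day 0 mean of 6.28 ± 0.51. The difference was 2.13 ± 1.15 (adjusted p 0.676) with all samples, and without replicate 2 it was 4.06 ± 0.50 (adjusted p 0.00204). The SOX17 level of the day 5 cultures was thus reached in 2 of the 3 day 3 samples. The sample titles give the day in activin and name no stage, and 1 marker does not set one.

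Other endoderm factors had the same split. PRDM1, a transcriptional repressor of early endoderm, stood at 5.87, 6.07 and 7.17 at day 1 and at 10.91, 6.21 and 10.91 at day 3, and without replicate 2 it rose by 4.54 ± 0.47 (adjusted p 0.000862, against 0.318 with all samples). GATA4, a GATA factor of endoderm and heart, stood at 5.89, 4.99 and 7.38 and at 10.37, 5.66 and 10.43, and rose by 4.32 ± 0.62 without replicate 2 (0.00463, against 0.414). In both, replicate 2 lay inside the day 1 range.

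GATA6, the related factor, stood at 8.35, 8.41 and 11.02 at day 1 and at 12.34, 7.54 and 12.90 at day 3. The chemokine receptor CXCR4 stood at 8.59, 7.55 and 10.55 and at 11.83, 7.58 and 12.43. Both missed the test even without replicate 2, with differences of 3.36 ± 0.84 (adjusted p 0.0557, against 0.809 with all samples) and 3.23 ± 0.78 (0.0501, against 0.752), and in both day 1 replicate 3 was the highest day 1 sample.

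FOXA2, a forkhead factor of endoderm, stood at 8.01, 7.22 and 9.20 at day 1 and at 9.68, 7.99 and 10.14 at day 3. It differed by 1.77 ± 0.52 without replicate 2 (adjusted p 0.105). The homeobox gene HHEX (9.15, 7.03 and 10.02 at day 3) differed by 1.67 ± 0.52 (0.125), the receptor tyrosine kinase KIT (11.08, 8.80 and 11.57) by 1.29 ± 0.37 (0.0991) and the secreted nodal and WNT antagonist CER1 by 1.13 ± 0.51 (0.307), also without that sample. With all samples these 4 genes had adjusted p values of 0.642, 0.857, 0.94 and 0.992. CER1 was already at 12.96, 12.77 and 14.26 at day 1, against 14.46, 11.46 and 14.46 at day 3.

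Of the streak transcription factors, EOMES, MIXL1 and GSC lay within the day 1 range in day 3 replicates 1 and 3. EOMES, the T-box gene upstream of much of the endoderm programme, stood at 12.22, 11.51 and 12.89 at day 1 and at 12.46, 6.51 and 12.49 at day 3. MIXL1, a homeobox factor, stood at 12.07, 11.91 and 13.53 and at 12.71, 7.64 and 11.95. GSC, a homeobox gene of the organizer, stood at 10.33, 9.64 and 11.57 and at 10.53, 5.07 and 11.05. In all 3 genes day 3 replicate 2 lay below every day 1 sample and close to the day 0 means of 6.61 ± 0.69, 7.16 ± 0.56 and 5.25 ± 0.69. The differences were -1.72 ± 1.19, -1.74 ± 1.01 and -1.63 ± 1.17 with all samples (adjusted p 0.796, 0.718 and 0.811). Without replicate 2 they were 0.27 ± 0.51 for EOMES, -0.17 ± 0.60 for MIXL1 and 0.28 ± 0.56 for GSC (0.854, 0.93 and 0.865), so the direction turned for EOMES and GSC.

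TBXT, the T-box gene of the streak and mesoderm, differed from these factors. It stood at 8.25, 8.55 and 9.34 at day 1 and at 7.49, 4.90 and 7.46 at day 3, with all 3 day 3 samples below all day 1 samples, and the difference was -2.10 ± 0.62 (adjusted p 0.286), or -1.24 ± 0.45 without replicate 2 (0.189). FGF8, a streak growth factor, stood at 9.32, 9.88 and 9.80 and at 8.68, 6.36 and 9.01, and NODAL, the ligand whose receptors activin shares, at 11.43, 11.89 and 12.11 and at 10.70, 10.71 and 10.95. In NODAL, as in FGF4, replicate 2 lay with the other day 3 samples, and the difference was -1.02 ± 0.29 (adjusted p 0.257). WNT3 and MESP1, a WNT ligand and a mesoderm helix-loop-helix factor, differed by -1.15 ± 0.56 and 0.10 ± 0.40 (adjusted p 0.619 and 0.99), and MESP1 turned to -0.38 without replicate 2. Their day 3 levels were 8.77, 6.63 and 8.41 for WNT3 and 7.63, 9.08 and 7.65 for MESP1.

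Of 6 markers of the undifferentiated state, DPPA4, ZFP42, PRDM14 and THY1 lay within or above the day 1 range in day 3 replicate 2. DPPA4, a chromatin-associated gene of stem cells, stood at 12.93, 13.23 and 12.55 at day 1 and at 11.54, 13.40 and 11.64 at day 3. It fell by 1.32 ± 0.29 without replicate 2 (adjusted p 0.0335, against 0.73 with all samples). ZFP42, a zinc finger gene of the same state, stood at 11.76, 12.30 and 11.27 and at 10.15, 12.22 and 10.22 (without replicate 2 -1.59 ± 0.40, 0.0557, against 0.702). PRDM14, a regulator of pluripotency, stood at 10.67, 10.55 and 9.59 and at 8.91, 10.16 and 8.86 (-1.38 ± 0.46, 0.145, against 0.617). The surface marker THY1 stood at 10.42, 11.16 and 10.11 at day 3 and fell by 1.08 ± 0.25 without replicate 2 (0.0449, against 0.398).

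The DNA methyltransferase gene DNMT3B was an exception among them, at 13.29, 12.24 and 13.26 at day 1 and 11.74, 11.66 and 11.97 at day 3, with replicate 2 beside the others (-1.14 ± 0.49, adjusted p 0.527). LIN28A, an RNA-binding protein gene, differed by -0.41 ± 0.46 with all samples and by 0.13 ± 0.40 without replicate 2, which stood at 12.02 against 13.47 and 13.77.

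**Figure D2:**
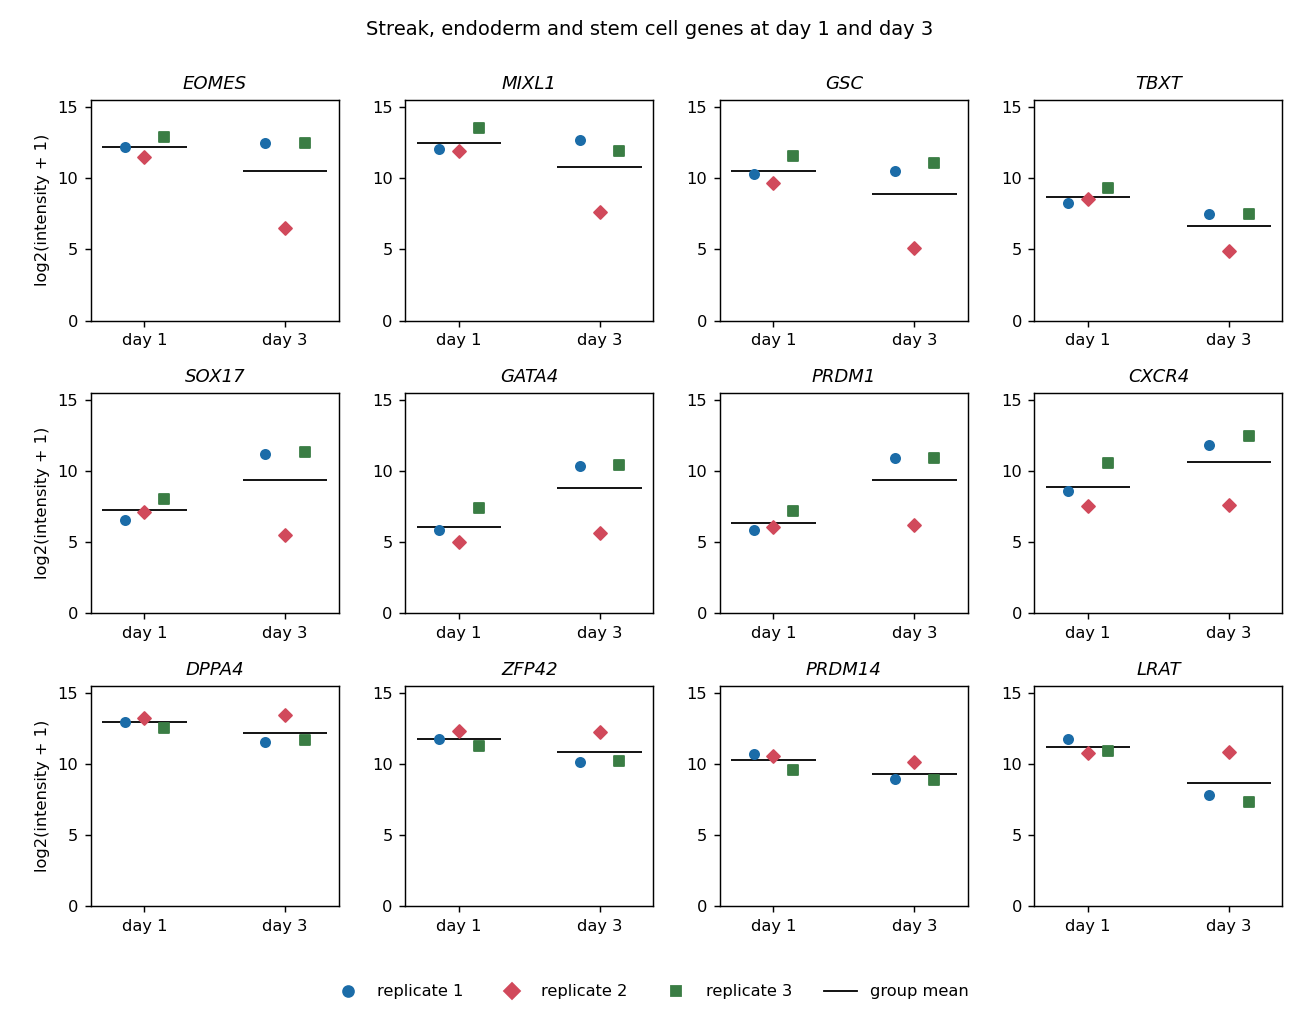
Level, as log2(intensity + 1), of streak genes (top row), endoderm genes (middle row) and genes high in the undifferentiated or day 1 cells (bottom row) in the 3 day 1 and 3 day 3 samples; points are samples, marked by replicate number, and lines are group means. Day 3 replicate 2 is lower than replicates 1 and 3 in every panel of the upper 2 rows and higher than both in every panel of the bottom row. The panels are a selection, and FGF4, NODAL, MESP1, DNMT3B and LIN28A, which are not drawn, did not have this pattern.

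When day 3 replicate 2 was left out, 505 probe sets passed limma, 349 higher at day 3 (1.89%) and 156 lower (0.843%), and all 6 genes called with it were among them. The 2 remaining day 3 samples were then compared with 3 at day 1. Leaving out a sample that differs can also narrow the spread, as for SOX17, whose SE went from 1.15 to 0.50. These calls therefore describe replicates 1 and 3 only. The sample left out followed the falls of the others in part and did not follow their rises as a set. Of the 349 higher probe sets it was above the day 1 mean in 149 (42.7%), where 50.3% of all probe sets were, and the median change was 1.94 in replicates 1 and 3 and -0.19 in replicate 2. Of the 156 lower probe sets it was below the day 1 mean in 115 (73.7%, against 49.7% of all probe sets), with median changes of -1.42 and -0.37. It was beyond every day 1 sample in 101 (28.9%) of the higher and 85 (54.5%) of the lower probe sets, against 38.1% and 38.8% of all probe sets. At day 5, the group mean was past the midpoint between day 1 and day 3 for 285 of the 349 (81.7%) and 127 of the 156 (81.4%), and at day 0 for 49 and 19 of them. The same shares over all probe sets were not taken, and the day 1 mean also entered the choice of these probe sets.

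**Figure D3:**
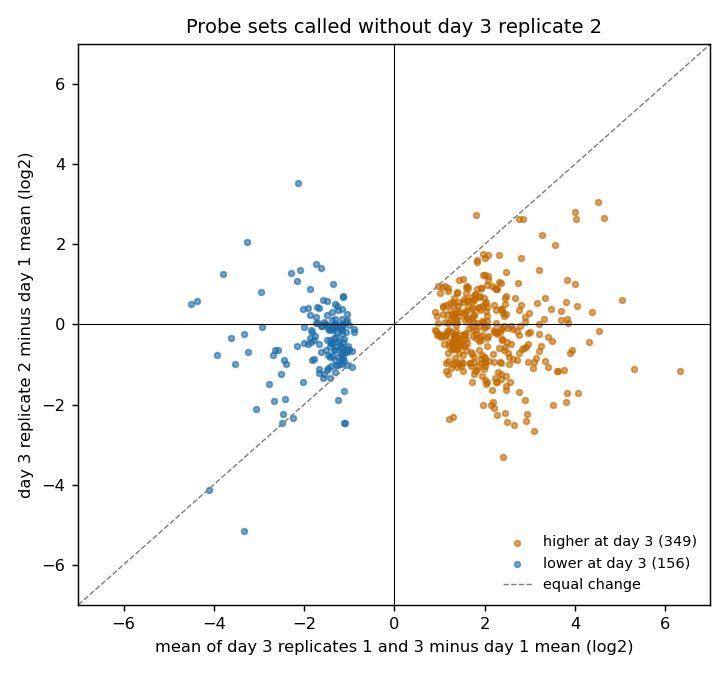
Change from the day 1 mean, as log2, in day 3 replicate 2 (vertical axis) against the mean change in day 3 replicates 1 and 3 (horizontal axis) for the 505 probe sets called without replicate 2; each point is a probe set and the dashed line marks equal change. The 349 higher probe sets centre near 0 on the vertical axis (median -0.19), and most of the 156 lower ones lie above the dashed line (median -0.37).

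Among the genes that could be named, COLEC12 had the largest rise without day 3 replicate 2. COLEC12, a scavenger receptor of the collectin family, stood at 5.94, 5.09 and 6.59 at day 1 and at 11.81, 4.72 and 12.60 at day 3, and rose by 6.33 ± 0.57 without replicate 2 (adjusted p 0.000467, against 0.431 with all samples), an 80.5-fold difference. CD48, a surface glycoprotein better known from blood cells, stood at 4.57, 6.32 and 7.18 and at 11.52, 4.90 and 11.13, and rose by 5.30 ± 0.82 (0.00651, against 0.535). Replicate 2 was inside or below the day 1 range in both.

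NPPB, the natriuretic peptide gene, stood at 7.33, 5.27 and 9.51 at day 1 and at 12.16, 7.97 and 12.64 at day 3, and rose by 5.03 ± 1.16 without replicate 2 (0.0414, against 0.39). TNC, the matrix protein tenascin C, stood at 8.35, 7.31 and 9.02 and at 12.74, 8.55 and 12.46 and rose by 4.38 ± 0.93 (0.0286, against 0.39). Their day 1 samples were far apart, with day 1 replicate 2 lowest in each.

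In CXCL14, a chemokine gene, all 3 day 3 samples were above day 1. It stood at 5.26, 4.83 and 7.50 at day 1 and at 10.97, 8.52 and 10.05 at day 3. The difference was 3.99 ± 0.69 with all samples (adjusted p 0.1), and without replicate 2 it rose by 4.65 ± 0.67 (0.00481). GRP, a neuropeptide gene, was also separated, at 2.25, 4.30 and 4.25 and at 8.29, 4.60 and 6.90, and rose by 3.99 ± 0.72 without replicate 2 (0.0144, against 0.24), a size that depends on the pseudocount because its day 1 levels are low.

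Besides FGF4, EBF2 and CBLN1, the named genes with the largest falls without replicate 2 were in most cases near the day 1 level in that sample. TMT1A, a methyltransferase gene, stood at 10.35, 11.34 and 9.64 at day 1 and at 5.64, 10.95 and 6.23 at day 3, and fell by 4.51 ± 0.51 (adjusted p 0.00156, against 0.39 with all samples). CNMD, a glycoprotein of cartilage, stood at 10.07, 10.37 and 9.69 and at 5.81, 10.63 and 5.54 and fell by 4.37 ± 0.58 (0.00298, against 0.434). LRAT, which esterifies retinol, stood at 11.77, 10.79 and 10.91 and at 7.79, 10.81 and 7.30 and fell by 3.61 ± 0.33 (0.000467, against 0.222).

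LPAR6, a lysophosphatidic acid receptor, fell by 3.80 ± 0.84 (0.0351, against 0.697), with 10.85 in replicate 2 against 5.55 and 6.02. TIMP4, a metalloproteinase inhibitor, fell by 2.93 ± 0.39 (0.00315, against 0.312), with 9.99 against 7.16 and 7.11, and the secreted TAFA4 fell by 2.95 ± 0.58 (0.0204, against 0.636), with 8.45 against 3.94 and 5.42. NRSN1, a neuronal vesicle protein, fell by 3.53 ± 0.55 (0.00658, against 0.203) and was the one of these in which replicate 2, at 5.12, also lay below all day 1 samples (6.20, 5.95 and 6.19).

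Over all probe sets, the day 3 samples were higher than every day 1 sample in 945 (5.11%) and lower than every one in 1392 (7.53%). By this definition day 3 replicate 2 lies on the same side of day 1 as replicates 1 and 3 in all of them. An exact permutation test of 3 against 3 samples cannot give a two-sided p below 0.1, so no single gene can be called from the separation alone. Among exchangeable samples a share of 0.1 of probe sets would be separated in either direction, so these counts hold many separations that would arise without a change.

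Several of the genes with the widest gaps upward were low at day 1 and had day 0 means near their day 3 levels. ANXA1, a phospholipid-binding annexin, stood at 9.90, 10.31 and 9.12 at day 1 and at 12.85, 12.41 and 12.39 at day 3, with a gap of 2.08 between the groups. Its day 0 mean was 12.13 ± 0.65 and its day 5 mean 12.36 ± 0.56. The difference was 2.77 ± 0.43 (adjusted p 0.059), and without replicate 2 it rose by 2.84 ± 0.49 (0.0118).

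EMP3, a small membrane protein gene, stood at 7.58, 7.61 and 7.31 at day 1 and at 9.76, 9.06 and 8.92 at day 3, against 9.61 ± 0.28 at day 0. EDN1, the vasoconstrictor endothelin, stood at 6.49, 5.27 and 5.64 and at 8.10, 7.85 and 8.12, against 8.42 ± 0.90 at day 0. TWIST1, a helix-loop-helix factor of mesenchyme, stood at 6.02, 6.63 and 5.02 and at 8.46, 7.84 and 8.72, against 8.01 ± 0.98. The differences were 1.75 ± 0.35, 2.22 ± 0.57 and 2.45 ± 0.64 (adjusted p 0.134, 0.207 and 0.209), and of the 3 only EMP3 passed without replicate 2 (0.0288, against 0.0902 and 0.07).

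The small GTPase gene RRAS and the annexin gene ANXA3 were separated too, at 8.43, 8.98 and 8.10 against 10.36, 10.26 and 10.56 for RRAS and at 9.74, 10.42 and 9.68 against 11.72, 12.67 and 11.78 for ANXA3. They differed by 1.89 ± 0.32 (adjusted p 0.0882) and 2.11 ± 0.40 (0.134), and ANXA3 was highest in replicate 2.

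Other genes had day 0 means below every day 3 sample. MYL7, an atrial myosin light chain, stood at 6.81, 7.17 and 8.17 at day 1 and at 10.32, 9.62 and 10.97 at day 3, with 8.55 ± 1.20 at day 0 (7.26 to 9.91, overlapping day 3) and 11.24 ± 0.12 at day 5, and differed by 2.92 ± 0.60 (adjusted p 0.134). NTN4, a secreted netrin, stood at 2.25, 5.31 and 4.78 and at 7.70, 6.74 and 8.59, with 5.38 ± 1.04 at day 0 and 8.86 ± 0.41 at day 5, and differed by 3.56 ± 0.77 (0.141). The size of the NTN4 difference depends on the pseudocount because its day 1 levels are low. MYO3A, a myosin of hair cells, stood at 6.39, 6.44 and 6.45 and at 8.78, 7.73 and 9.04 (2.09 ± 0.40, 0.134). Without replicate 2 all 3 passed (0.0216, 0.0252 and 0.00606). DELEC1 stood at 4.57, 6.10 and 6.21 and at 9.03, 7.60 and 9.34 (3.03 ± 0.66, 0.141).

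Among the genes separated downward, CBLN1, a secreted synaptic protein, stood at 8.08, 9.16 and 7.62 at day 1 and at 5.88, 6.18 and 4.58 at day 3, with 6.13 ± 0.40 at day 0 and 6.35 ± 0.35 at day 5, a peak at day 1 like that of EBF2 and IL23A. It differed by -2.74 ± 0.46 (adjusted p 0.0882). PGBD5, a transposase-derived gene, stood at 8.19, 8.11 and 8.05 and at 6.69, 6.79 and 6.37 (-1.50 ± 0.30, 0.134). CABP1, a calcium-binding protein of neurons, stood at 6.91, 7.56 and 6.61 and at 5.22, 3.05 and 5.16, where replicate 2 was the lowest (-2.55 ± 0.62, 0.203). The ankyrin repeat gene ANKRD13B and MCHR1, the receptor for melanin-concentrating hormone, were separated as well, with differences of -2.35 ± 0.82 (0.369) and -1.91 ± 0.45 (0.177) and day 3 levels of 6.59, 5.52 and 6.61 and of 6.47, 6.18 and 6.41.

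**Figure D4:**
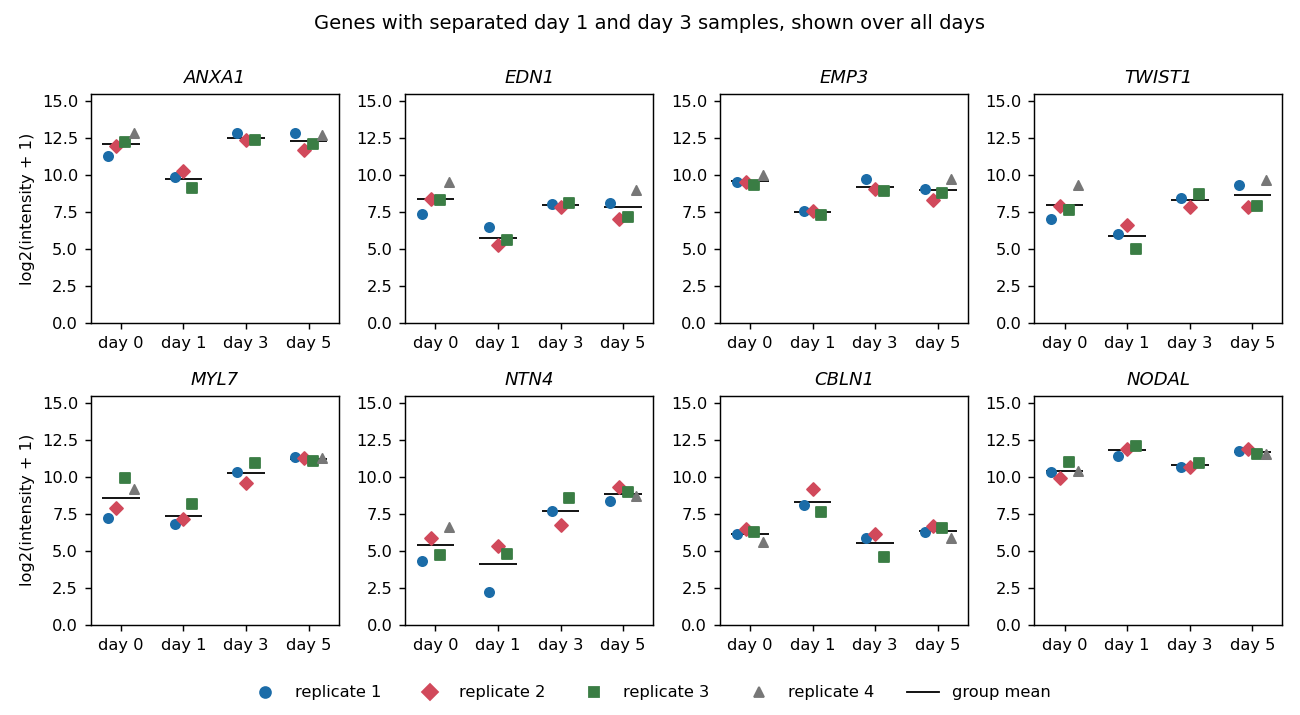
Level, as log2(intensity + 1), of 8 genes whose 3 day 3 samples do not overlap the 3 day 1 samples, in every biological sample of days 0, 1, 3 and 5; points are samples, marked by replicate number, and lines are group means. ANXA1, EDN1, EMP3 and TWIST1 dip at day 1, MYL7 and NTN4 have their higher means from day 3 on, and CBLN1 and NODAL are lower at day 3 than at day 1.

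Gene groups were described by counts over lists written for this tissue, and some genes stand in several lists. The lists were written with earlier results of these data known, so their counts are a description and not a test. Over all probe sets 47.8% had a difference above 0 and the median difference was -0.02 (-0.06 without day 3 replicate 2). Of the 17 measured primitive streak genes 4 were above 0 and the median was -1.02, but -0.38 without replicate 2. FGF4 was the 1 member called, where 0.0324% of all probe sets were, and 4 were separated downward, against 7.53%. The mean over the list, relative to day 1, was -0.46, -1.99 and -0.49 in day 3 replicates 1, 2 and 3.

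Of the 20 measured definitive endoderm genes 18 were above 0, with a median of 1.09, and without replicate 2 all 20 were, with a median of 1.89. With all samples 0 of the 20 passed limma and 4 had an unadjusted p under 0.05, as 1595 of all 18495 probe sets did. Without replicate 2, 8 rose, where 1.89% of all probe sets did. No member was separated, and the list mean was 2.02, -1.03 and 2.40 relative to day 1 in replicates 1, 2 and 3. Besides SOX17, GATA4 and PRDM1, the R-spondin receptor gene LGR5 rose by 3.40 ± 0.58 without replicate 2 (adjusted p 0.0114, against 0.456 with all samples), the adhesion protein gene FLRT3 by 3.34 ± 0.49 (0.0053, against 0.581) and the retinoic acid hydroxylase gene CYP26A1 by 2.58 ± 0.47 (0.0149, against 0.401). Their levels in replicate 2 were 5.36, 6.47 and 10.47, against 9.29 and 8.84, 10.60 and 10.82, and 12.95 and 13.21.

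Of the 21 measured pluripotency genes 18 were below 0, with a median of -0.71 (-1.08 without replicate 2), and 6 fell without that sample, where 0.843% of all probe sets did. The list mean was -0.79, -0.34 and -0.74 relative to day 1, so replicate 2 was below the day 1 range of -0.09 to 0.16 as well, though by less. KLF4, a zinc finger factor, was separated with 6.83, 7.13 and 7.38 at day 1 and 5.88, 6.09 and 5.83 at day 3 (-1.18 ± 0.26, adjusted p 0.141), while LCK, a kinase gene expressed in stem cells, stayed at 9.20 in replicate 2 against 7.56 and 7.60.

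Among growth factor pathways the FGF list had 10 of 25 genes above 0 with a median of -0.10, but 14 of 25 and 0.20 without replicate 2, so its direction turned on that sample. It had 6 members separated downward and 2 upward, where 7.53% and 5.11% of all probe sets were. FGF19, a ligand better known from the intestine, stood at 8.69, 9.21 and 9.41 at day 1 and at 6.71, 8.22 and 6.62 at day 3 and fell by 2.44 ± 0.42 without replicate 2 (adjusted p 0.0121, against 0.203). The nodal and TGF-beta list had 12 of 22 above 0 and a median of 0.03 (15 and 0.29 without replicate 2), with 0 called in either fit.

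Of 26 BMP pathway genes 17 were above 0 (median 0.16), and without replicate 2 there were 20 above 0 (median 0.30) and 3 that rose, where 1.89% of all probe sets did. They included the ligand gene BMP2, at 8.46, 7.81 and 9.77 against 11.94, 8.26 and 12.42, which rose by 3.50 ± 0.64 (adjusted p 0.0155, against 0.492 with all samples), and the BMP-binding protein gene BMPER, at 7.83, 4.60 and 7.54 at day 3, which rose by 2.58 ± 0.31 (0.00204, against 0.482). Of 34 WNT pathway genes 18 were above 0 (median 0.03), and the ligand gene WNT2B, at 8.54, 5.16 and 8.52 at day 3, rose by 3.70 ± 0.77 without replicate 2 (0.0257, against 0.373). Of 16 secreted WNT inhibitors 10 were above 0. Separated were 2 downward (12.5%, where 7.53% of all probe sets were) and 0 upward, too few to set against the direction of the list. DKK4 stood at 9.20, 9.75 and 11.84 and at 8.13, 7.83 and 6.16 (-2.89 ± 1.04, 0.382), and SFRP2 at 12.11, 11.74 and 12.27 and at 10.64, 10.82 and 10.09 (-1.52 ± 0.30, 0.134).

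Matrix, adhesion and guidance genes were mostly higher in replicates 1 and 3. Of 39 matrix genes 26 were above 0 (median 0.42, and 0.85 without replicate 2), of 27 genes of the cadherin switch 19 (0.27, and 0.99) and of 19 chemokine and migration genes 15 (0.55, and 1.29). The list means in day 3 replicate 2 were -0.53, -0.53 and -0.39 relative to day 1, against 0.80 to 1.57 in replicates 1 and 3. In these lists replicate 2 was also the lowest sample at day 1 (-0.38, -0.23 and -0.30) and at day 5 (-0.19, -0.20 and 1.25). Without day 3 replicate 2 the collagen gene COL5A2 rose by 3.89 ± 0.77 (adjusted p 0.0216, against 0.571 with all samples), the netrin gene NTN1 by 3.33 ± 0.78 (0.0449, against 0.363) and the semaphorin receptor gene PLXNA2 by 3.61 ± 0.74 (0.0252, against 0.677). Replicate 2 stood at 8.15, 6.27 and 6.36 in them, against 12.78 and 12.74, 8.75 and 9.13, and 10.94 and 11.34 in replicates 1 and 3.

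The synaptic adhesion list had 16 of 25 above 0 (median 0.15) and 3 members separated in each direction, where 5.11% of all probe sets were separated upward and 7.53% downward. SLITRK2, a synaptic membrane protein gene, stood at 6.09, 7.67 and 7.24 and at 9.25, 8.74 and 9.39 (2.12 ± 0.39, adjusted p 0.129). LRRTM1, a synaptic organizer, stood at 7.06, 7.55 and 6.83 and at 5.13, 5.71 and 5.11 (-1.83 ± 0.36, 0.134). On the helix-loop-helix list, HEY1, a repressor downstream of Notch, stood at 7.51, 8.86 and 6.50 and at 4.98, 6.14 and 4.73 (-2.34 ± 0.58, 0.203).

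DNA replication genes were lower in all 3 day 3 samples. Of 27 measured 25 were below 0, with a median of -0.63, and 11 (40.7% of the list) were separated downward, where 7.53% of all probe sets were. With all samples 0 of the 27 passed limma and 11 had an unadjusted p under 0.05, as 1595 of all 18495 probe sets did. Without replicate 2, 1 fell, where 0.843% of all probe sets did. The list mean relative to day 1 was -0.70, -0.41 and -0.86, against -0.08 to 0.05 in the day 1 samples. The helicase subunit gene MCM2 stood at 11.16, 10.25 and 11.18 and at 9.86, 9.19 and 9.64 (-1.30 ± 0.39, adjusted p 0.297), MCM5 at 12.12, 11.19 and 12.12 and at 10.69, 10.33 and 10.52 (-1.29 ± 0.36, 0.245), and GINS3, of the same helicase complex, at 10.05, 9.84 and 10.04 and at 8.88, 8.97 and 8.75 (-1.11 ± 0.25, 0.152). Mitosis genes had 11 of 23 above 0 and a median of -0.01.

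Of 16 hypoxia genes 14 were above 0 (median 0.38) and 6 were separated upward, where 5.11% of all probe sets were. The angiogenic factor gene VEGFA stood at 8.53, 8.51 and 8.60 and at 9.78, 8.76 and 10.19 and rose by 1.44 ± 0.35 without replicate 2 (adjusted p 0.0494, against 0.405), and the mitophagy gene BNIP3, at 11.05, 10.33 and 11.74 at day 3, rose by 1.34 ± 0.31 (0.0449, against 0.37). The list mean was 0.67, 0.15 and 0.72 relative to day 1. Cholesterol synthesis genes were lower in replicates 1 and 3 only, with 13 of 15 below 0 (median -0.33) and list means of -0.78, 0.08 and -0.40. Glycolysis genes were lower in day 3 replicate 2, with list means of 0.08, -0.78 and 0.17. Replicate 2 was the lowest sample of this list at day 1 (-0.17) and at day 5 (-0.88) as well. The enolase gene ENO2 was the 1 of 20 measured members that rose without day 3 replicate 2, where 1.89% of all probe sets did. It stood at 10.25, 9.44 and 10.93 at day 3 (1.76 ± 0.36, adjusted p 0.0258, against 0.252).

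Markers of other cell types that such cultures can hold were measured beside these. The fibroblast list (14 genes) had means of 6.92, 6.85 and 6.84 at day 1 and 7.46, 7.18 and 7.31 at day 3, the trophoblast and amnion list (16) 5.64 to 5.79 and 6.0 to 6.33, the neural and surface ectoderm list (17) 6.36 to 6.67 and 6.74 to 7.06, and the mesoderm list (24) 6.80 to 7.13 and 7.06 to 7.33. Above 0 were 9 of 14, 13 of 16, 13 of 17 and 17 of 24 genes, none of these lists had a member called with all samples, and their part in the other results was not tested. Without replicate 2 the counts were 9, 8, 13 and 15, so the trophoblast and amnion list then had 8 genes above 0 and 8 below. Its list mean relative to day 1 was nonetheless 0.62, 0.37 and 0.29 in day 3 replicates 1, 2 and 3, above every day 1 sample. The extraembryonic endoderm list (14), which shares GATA4 and GATA6 with definitive endoderm, had means of 9.01, 7.62 and 9.05 at day 3 against 7.68 to 8.30 at day 1. The mesoderm T-box gene TBX3 stood at 5.26, 4.48 and 4.61 and at 7.72, 5.44 and 7.18, and rose by 2.67 ± 0.49 without replicate 2 (adjusted p 0.0155, against 0.254). Of genes on the trophoblast list, the iron exporter gene SLC40A1 (9.28, 5.30 and 10.46 at day 3) rose by 3.93 ± 0.50 (0.00209, against 0.456) and IGFBP3 (9.35, 8.23 and 9.01), which binds insulin-like growth factors, by 2.07 ± 0.36 (0.0121, against 0.137), also without it.

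Lists taken as signs of RNA quality moved with day 3 replicate 2 in part. The first was meant for histone transcripts without a poly(A) tail but also holds H2AX and H2AZ1. Its means over 12 genes were 11.94, 12.67 and 11.69 in day 3 replicates 1, 2 and 3 and 12.48, 12.82 and 12.27 at day 1. Means over 18 ribosomal protein genes were 13.79, 13.92 and 13.82 against 13.82, 13.92 and 13.76. In both lists replicate 2 was the highest sample at day 1 and at day 3, and the part of RNA quality in the results was not tested. Relative to day 1 the histone list was at -0.58, 0.15 and -0.83 at day 3, and the DNA replication list at -0.70, -0.41 and -0.86. RNA quality and replication cannot be told apart in the histone list.

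**Figure D5:**
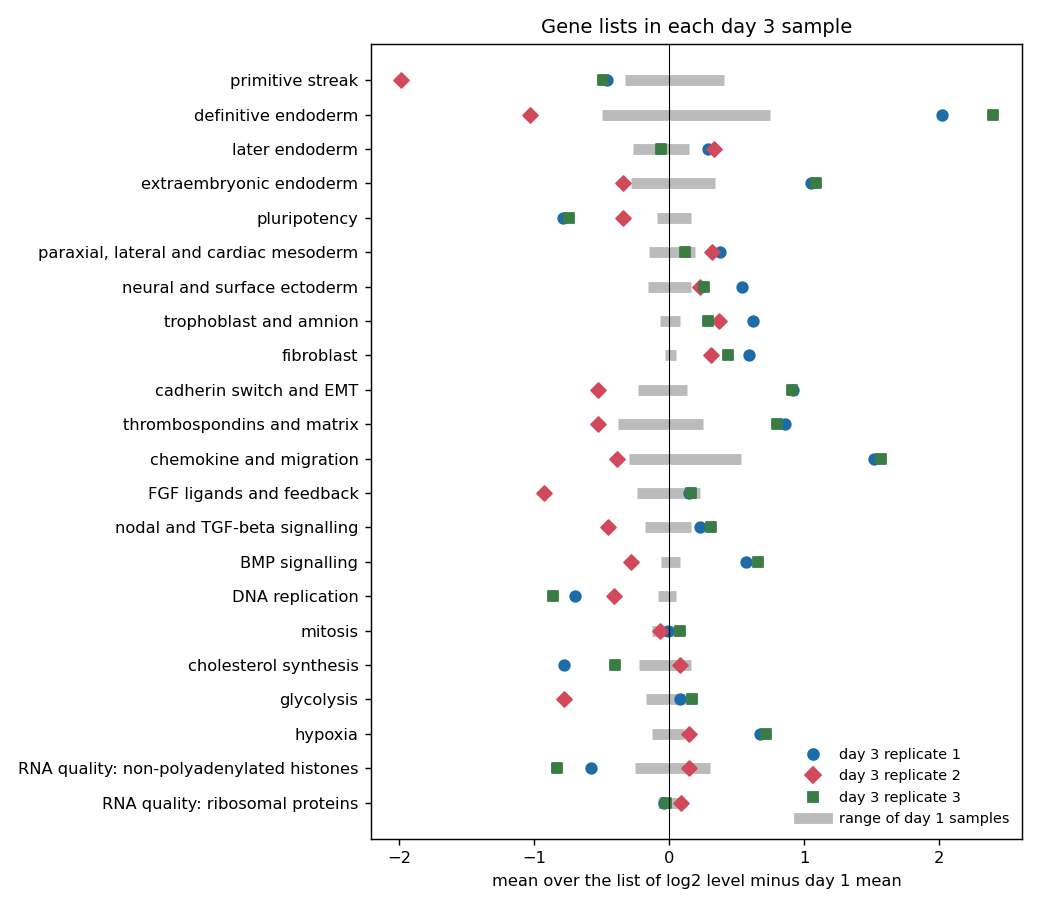
Mean over the measured genes of each list of the level minus its day 1 mean, as log2, in the 3 day 3 samples (points, marked by replicate number), with the range of the 3 day 1 samples as a grey bar. Replicates 1 and 3 lie close together for most lists, replicate 2 is on the other side of 0 for definitive endoderm, matrix, migration and cadherin switch genes, and all 3 are below the day 1 range for DNA replication and pluripotency genes.

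The same motifs were counted in the promoters of the genes called without day 3 replicate 2. Of 288 higher genes 219 had a promoter in the table and of 122 lower genes 98, and SMAD-type letters were in 43.4% and 49.0% of them, against 44% of the 11418 measured genes with a promoter. GATA-type letters were in 8.68% of the higher (19 promoters) and 3.06% of the lower (3), against 7.32%. FOXA-type letters were in 3.65% and 2.04%, against 2.48%, SOX-type letters in 5.48% and 7.14%, against 7.54%, T-box-type letters in 1.37% and 1.02%, against 3.09%, and FOXH1-type letters in 0.457% (1 promoter) and 3.06% (3), against 1.86%. These shares are a description with no test.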

How the data were processed

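Per the labels' protocols, ribosomal RNA was removed from the extracted RNA, and the amplified cDNA was put on exon arrays. The deposited table holds gene-level intensity on a linear scale, with 18495 probe sets, values from -0.273 to 30307.1 (636 below 0) and array medians of 245.1 to 246.3. The submitters' processing notes name hg18, while the tools behind summarisation and normalization are not stated in those notes or labels. Precision is limited by how many arrays there are.

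The log2 of each value plus 1 was used, with the paired arrays of a sample averaged (avearrays). Groups were fitted with lmFit and eBayes of limma 3.58.1 (R 4.3.3) over 14 biological samples, with group as the only term (10 residual and 3 prior degrees of freedom), and p-values were adjusted over all probe sets. A fold change refers to the log2(value + 1) scale, and that of low genes depends on the pseudocount. Scripts were tested on simulated data. Of the probe sets, 14577 carried 1 symbol and could be named; of 669 genes in 32 lists, 569 had a probe set of their own, that with the highest mean being used. Members, lists and naming rule were chosen with earlier results of these data known. The named genes are 26 stage markers, the genes called with all samples, the 10 highest and 10 lowest differences called without day 3 replicate 2, the 10 widest gaps in each direction, and up to 4 members per list by size of difference. The text gives 83 of the 154 genes so named.

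Samples of days 1 and 3 with the same replicate number deviated together (correlations of deviations from the group means of 0.19, 0.51 and 0.37 for numbers 1, 2 and 3). This pairing is read from the data and not from a statement in the labels. The main fit does not use it, and it enters only in the replicate block. Alternatives were the replicate block, leaving out each sample, days 1 and 3 only, quantile normalization, median centring, a filter on the dimmest 25%, a pseudocount of 16, a variance trend with robust moderation, array weights (gene-by-gene method, since the default did not converge), either technical replicate, stricter thresholds and 1 probe set per gene. Promoter windows came from RefSeq (GRCh38.p14). Figures used Python 3.11.15 and matplotlib 3.10.9.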

Additional observations from a re-analysis of the deposited data

Results flagged for a closer look

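In undifferentiated cells EBF2 stood at 5.10 in day 0 replicate 1, apart from the other 3 samples at 5.97 to 6.10. SDC2 stood at 11.79 in day 0 replicate 4, apart from 11.37 to 11.42 in the others. Each gap was wide for a group of 4 by Dixon's criterion, and 2 of the 38 such groups examined stood out in this way, where chance gives about 1 in 20.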

How the results depend on the processing

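The count of 6 probe sets past the test ran from 1 to 505 when single samples were left out. It was 1 with the replicate block (THBS2), which gained no call among the genes named, 0 for days 1 and 3 only (where 1051 had an unadjusted p under 0.05), 1 at an adjusted p under 0.01 and 3549 with array weights. In settings chosen after seeing the data it was 573 with the replicate block and without day 3 replicate 2, and 766 without replicate 2 of days 1, 3 and 5. The cause was not tested. It was 5 to 8 under quantile normalization, median centring, the dim filter, a pseudocount of 16, the variance trend, either technical replicate and 1 probe set per gene. The 2337 separated probe sets became 2981 to 7870 without 1 sample of either group, which leaves fewer samples to separate (4877 without day 1 replicate 2, 7870 without day 3 replicate 2). Of the 83 genes named, 6 changed direction, none of them past the test. Without single samples the difference ran from -2.72 to 0.27 for EOMES, -2.71 to 0.28 for GSC, -0.38 to 0.35 for MESP1, -0.37 to 1.13 for CER1, -0.09 to 1.29 for KIT and -0.75 to 0.13 for LIN28A. With array weights it was 0.01 for EOMES, 0.04 for GSC and -0.39 for MESP1. Of 32 list medians, 11 moved under some alternative by more than the SD of the 3 day 3 samples' own medians, 7 of them without day 3 replicate 2.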
